A study of Mus musculus with 3 samples.

Results

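The 9 genes described here encode transcriptional regulators that set or maintain myeloid fate: Spi1, Cebpa, Runx1, Irf8, Irf5, Batf3, Maf, Klf4 and Id2. They were chosen by gene symbol, as named myeloid lineage factors, from the 18820 genes that had a probe set of their own, and each was measured by 1 probe set. The cells were RAW264.7, a mouse macrophage-like line that was transformed by Abelson leukaemia virus, so the values come from 1 established line and not from primary macrophages. Cultures received 500 µM palmitate (a saturated fatty acid), elaidate (a trans monounsaturated fatty acid) or oleate (its cis isomer) for 6 hours, each carried on BSA at a ratio of 2 to 1. RNA of 1 culture per fatty acid was hybridised to 1 array, which makes 3 arrays in all. No array of cells without fatty acid was used here, and no group had a replicate. Every difference below is therefore a description of a pair of arrays, without a p-value, an error or an interval, and a small difference does not show that isomers act alike.

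In the blood lineage PU.1, the ETS factor encoded by Spi1, opens the regulatory regions of macrophage genes and is needed throughout macrophage life. It works with C/EBP and RUNX factors in progenitors, and with IRF8, which favours monocytes and dendritic cells over granulocytes. MAF acts late, in resident macrophages, where it restrains self-renewal.

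The differences between palmitate and oleate lay mainly in 4 of the 9 genes. Irf8 and Maf were at least 2-fold lower with palmitate than with oleate, Irf5 was 1.68-fold lower, and Id2 was 1.996-fold higher. Spi1, Runx1, Cebpa and Batf3 lay within 0.15 log2 units of their oleate values, and Klf4 was 0.46 higher. Elaidate, the trans isomer, differed from oleate by less than 1.5-fold for each of the 9 genes. Irf8 at -0.50 and Maf at -0.45 were the members furthest from 0 in that comparison.

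Promoter windows of Irf8, Irf5 and Id2 are shown because these genes were at least 1.5-fold different between palmitate and oleate. The windows are RefSeq's, on build GRCm38.p6, and run from 250 bases before to 50 bases after the start of transcription. The table held windows for 7 of the 9 members, 9 windows in all, with none for Maf, which also passed 1.5-fold, or Spi1, and for Irf8 the upstream start is printed. Capitals mark a match to any of the 8 searched motifs on either strand.
Irf8 (chr8:120736108-120736407, plus strand): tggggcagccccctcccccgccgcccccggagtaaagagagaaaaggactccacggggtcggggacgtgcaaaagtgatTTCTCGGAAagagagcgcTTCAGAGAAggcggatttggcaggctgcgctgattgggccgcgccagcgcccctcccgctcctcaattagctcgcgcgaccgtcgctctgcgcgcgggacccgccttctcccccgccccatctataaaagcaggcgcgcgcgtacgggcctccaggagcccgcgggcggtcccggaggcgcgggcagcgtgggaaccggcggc
Irf5 (chr6:29526375-29526674, plus strand): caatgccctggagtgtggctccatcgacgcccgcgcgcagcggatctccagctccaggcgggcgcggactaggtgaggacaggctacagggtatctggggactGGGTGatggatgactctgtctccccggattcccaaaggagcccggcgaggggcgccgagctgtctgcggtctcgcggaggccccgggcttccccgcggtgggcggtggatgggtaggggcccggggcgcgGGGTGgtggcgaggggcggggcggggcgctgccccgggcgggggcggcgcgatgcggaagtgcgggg
Id2 (chr12:25096043-25096342, minus strand): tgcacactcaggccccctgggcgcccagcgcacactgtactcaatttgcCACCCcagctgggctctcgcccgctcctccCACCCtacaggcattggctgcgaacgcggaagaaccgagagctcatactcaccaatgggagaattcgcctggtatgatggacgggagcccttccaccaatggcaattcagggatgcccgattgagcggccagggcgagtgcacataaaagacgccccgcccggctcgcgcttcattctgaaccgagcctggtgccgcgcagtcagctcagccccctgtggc

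The motifs searched, on both strands, were GAGGAA for PU.1, TTGCNNAA for C/EBP, TGTGGT for RUNX, TGANTCA for AP-1 and BATF, TTCNNNGAA for STAT, CACCC for KLF, the IRF repeat and the ETS-IRF composite. The IRF repeat and the composite share letters and can overlap, and neither occurred in a member's window, beside 3.44% and 2.72% of all windows. The C/EBP motif and the AP-1 and BATF motif were absent as well, beside 10.8% and 7.81% of all windows. In the Irf8 window the capitals are 2 STAT-type matches, TTCTCGGAA beginning 171 bases and TTCAGAGAA beginning 153 bases before the start. Among 32851 promoter windows of the same length, 8.30% held such a match. The second Irf8 window held none of the 8 motifs. In the Irf5 and Id2 windows the capitals are 2 KLF-type matches each, a motif held by 57.5% of all windows. Of the other members, Batf3 held matches for PU.1, STAT and KLF, Runx1 for PU.1, RUNX and KLF, Cebpa for KLF, and Klf4 for none. A PU.1 match occurred in 28.3% of all windows and a RUNX match in 16.8%. Such matches are descriptions of the letters in these windows.

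**Figure D1:**
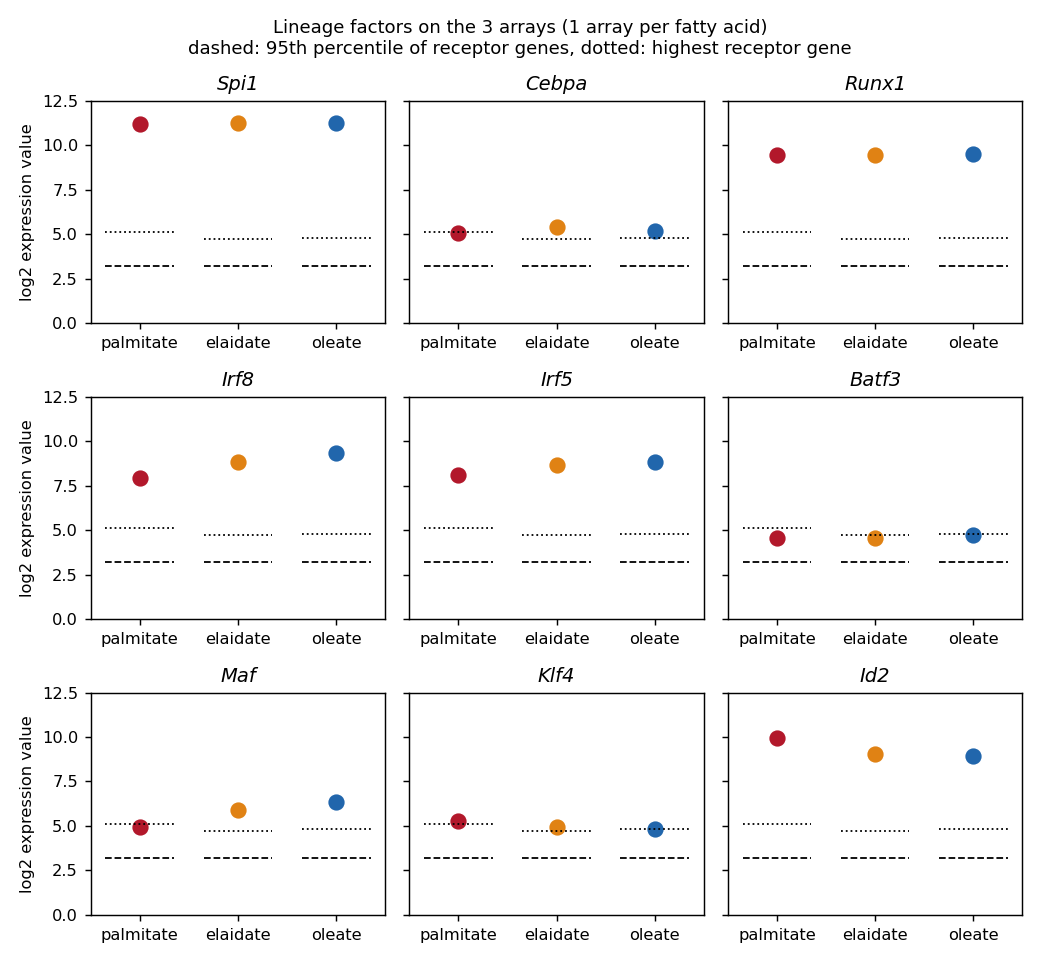
Log2 expression value (y axis) of each lineage factor on the palmitate, elaidate and oleate arrays (x axis), 1 point per array; dashed lines give the 95th percentile and dotted lines the highest value of 1157 olfactory and vomeronasal receptor genes on that array. Irf8, Irf5 and Maf step up, and Id2 steps down, between the palmitate and the oleate array, while all points lie above the dashed lines.

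Background was gauged from 1157 olfactory and vomeronasal receptor genes, taken as a stand-in. Whether some of them are expressed in these cells was not tested. A member counts as near background on an array when its log2 value is at or below the 95th percentile of these genes, 3.21 on the palmitate, 3.19 on the elaidate and 3.22 on the oleate array. By this limit 0 of the 9 members sat near background on any array, and 0 did with the 99th percentile. The median of all genes was 4.14 on each array, and 0 members lay at or below that either. The share of all genes at or below the limit was not counted. Batf3 came closest, 1.37 log2 units above the limit on the palmitate array, 1.39 on the elaidate and 1.51 on the oleate array. On the palmitate and elaidate arrays 3 receptor genes, and on the oleate array 1, reached or passed the Batf3 value. On the palmitate array 1 receptor gene, at 5.11, also reached or passed the values of Maf and Cebpa. The low values of Batf3 on all arrays, and of Maf and Cebpa under palmitate, thus lay inside the upper tail of the receptor genes. Klf4 lay above every receptor gene on each array, by 0.19 log2 units on the palmitate, 0.21 on the elaidate and 0.034 on the oleate array. Spi1, Runx1, Id2, Irf8 and Irf5 were at least 4.75 log2 units above the 95th percentile limit on every array.

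All 9 members passed the filter on low values, which kept the 9410 genes with a mean at or above a log2 value of 4.14. Over those genes the standard deviation of the log2 differences was 0.38 between palmitate and oleate, 0.33 between palmitate and elaidate, and 0.13 between elaidate and oleate. Macrophage markers were all present, and 8 of 8 passed the filter. Compared with oleate, 7 of the 8 were lower under palmitate and 1, Cd68, was equal. Over all genes past the filter 36.8% were lower and 32.3% equal. The summed linear level of the markers was 10139 on the palmitate, 12422 on the elaidate and 13182 on the oleate array. Such a sum weighs bright probe sets most. Lyz2 had 10.83 on the palmitate and 11.66 on the oleate array, and Cd68 had 11.77 on every array. Mertk, a receptor for apoptotic cells, was the only marker past 2-fold, with 5.57 on the palmitate, 7.30 on the elaidate and 7.67 on the oleate array. Its palmitate value stood at -2.10 against oleate and -1.74 against elaidate, beside 1.22% and 0.871% of all genes 2-fold lower. For elaidate minus oleate Mertk at -0.36, Adgre1 at -0.34 and Lyz2 at -0.19 were furthest from 0. The part of that shift in the members' values was not tested. Of 24 measured markers of T cells, B cells, granulocytes, dendritic cells, erythroid cells and fibroblasts, 16 were near background on all arrays and 21 had equal values on all arrays. Their summed linear level was 239 on the palmitate, 241 on the elaidate and 239 on the oleate array. The 4 past the filter, S100a8, Ccr7, Col1a1 and Acta2, were each equal on the 3 arrays. Exact equality was common: over the genes past the filter it held for 32.3% between palmitate and oleate, 34.2% between palmitate and elaidate, and 44.1% between elaidate and oleate. Its origin was not tested, and it sets several list medians to 0. Fewer cells of a state and less RNA per cell cannot be told apart in these bulk samples.

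Among the factors of progenitor and early myeloid fate, Spi1 (Entrez gene 20375), which encodes PU.1, had log2 values of 11.18 on the palmitate, 11.23 on the elaidate and 11.28 on the oleate array. The 3 values lay within 0.10 log2 units of each other. Runx1 (12394), a RUNX factor required for the emergence of blood stem cells, stood at 9.47 on the palmitate and elaidate arrays and at 9.53 on the oleate array. Its palmitate and elaidate values were equal to within 1e-06, as they were for 34.2% of all genes past the filter. Cebpa (12606), which commits progenitors to the granulocyte and macrophage branch, read 5.07 on the palmitate, 5.39 on the elaidate and 5.20 on the oleate array. Elaidate was the highest array for Cebpa and for no other member, 0.19 above oleate, and palmitate was 0.32 below elaidate. These 3 genes differed by less than 1.5-fold in each comparison.

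The interferon regulatory factors of the group were lower under palmitate. Irf8 (15900) had log2 values of 7.95 on the palmitate, 8.84 on the elaidate and 9.34 on the oleate array. The palmitate value was the lowest and the elaidate value in between, with differences of -1.38 for palmitate minus oleate (2.61-fold), -0.89 for palmitate minus elaidate (1.85-fold) and -0.50 for elaidate minus oleate (1.41-fold). Of the 9410 genes past the filter, Irf8 and those at least as low numbered 39 for palmitate minus oleate and 13 for elaidate minus oleate. Irf5 (27056), which acts below Toll-like receptors to switch on inflammatory cytokine genes, stood at 8.08 on the palmitate, 8.68 on the elaidate and 8.84 on the oleate array. It showed the same order of arrays as Irf8 with smaller steps, -0.75 for palmitate minus oleate, -0.59 for palmitate minus elaidate and -0.16 for elaidate minus oleate. Batf3 (381319), an AP-1 family partner of IRF8 needed for cross-presenting dendritic cells, had 4.58 on the palmitate and elaidate arrays and 4.72 on the oleate array. Its palmitate and elaidate values were equal to within 1e-06, as they were for 34.2% of all genes past the filter. The difference of -0.15 from oleate was therefore the same for both, at values within the range of the receptor genes.

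Maf, Klf4 and Id2 cover later steps of macrophage and dendritic cell identity. Maf (17132), the large MAF factor c-Maf, had log2 values of 4.96 on the palmitate, 5.90 on the elaidate and 6.34 on the oleate array. Differences were -1.39 for palmitate minus oleate (2.61-fold), -0.94 for palmitate minus elaidate (1.92-fold) and -0.45 for elaidate minus oleate (1.36-fold). The profile was close to that of Irf8, although the palmitate value lay inside the upper tail of the receptor genes. Klf4 (16600), a zinc finger factor of the monocyte branch, read 5.30 on the palmitate, 4.94 on the elaidate and 4.84 on the oleate array. It was highest under palmitate, by 0.46 over oleate and 0.36 over elaidate, below 1.5-fold. Id2 (15902), a helix-loop-helix protein without a DNA-binding region that holds E proteins inactive and is needed for some dendritic cells, had 9.92 on the palmitate, 9.06 on the elaidate and 8.92 on the oleate array. Palmitate stood above the other arrays, at 0.997 over oleate and 0.86 over elaidate (1.81-fold), whereas elaidate minus oleate was 0.14.

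**Figure D2:**
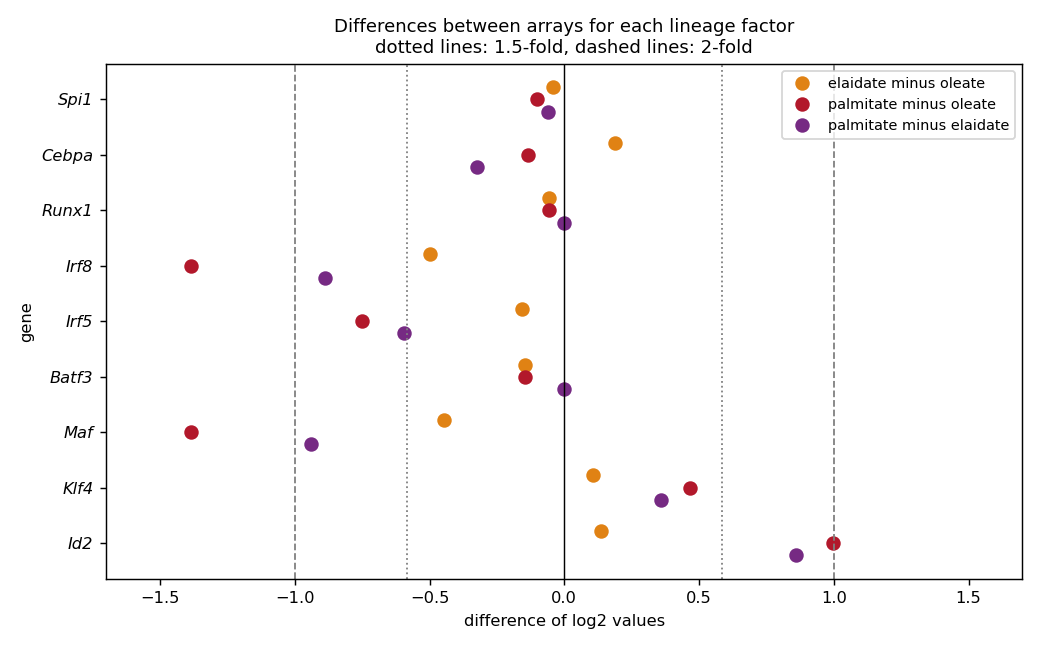
Difference of log2 values (x axis) for each lineage factor (y axis) in each of the 3 comparisons (orange for elaidate over oleate, red for palmitate over oleate, purple for palmitate over elaidate), with dotted lines at 1.5-fold and dashed lines at 2-fold. Irf8 and Maf lie beyond 2-fold below 0 for palmitate minus oleate, Id2 lies just inside 2-fold above 0, and all elaidate minus oleate points lie inside 1.5-fold.

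Counted against all genes, palmitate minus oleate put 2 of the 9 members at least 2-fold lower and 0 at least 2-fold higher, where 1.22% of the 9410 genes were 2-fold lower and 1.65% higher. At 1.5-fold, 3 members were lower, Irf8, Maf and Irf5, beside 4.73% of all genes, and 1 was higher, Id2, beside 4.57%. For palmitate minus elaidate 0 members passed 2-fold, beside 0.871% of all genes lower and 0.978% higher. The same 4 genes passed 1.5-fold there, 3 lower beside 4.43% and 1 higher beside 3.18% of all genes. For elaidate minus oleate 0 members passed 1.5-fold, beside 0.0638% of all genes lower and 0.723% higher, and at 2-fold 0% of all genes were lower and 0.106% higher. The group is small, so each member weighs much in these counts. The comparisons share arrays, so they are not separate evidence for the same genes.

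Counting any difference in sign, 7 of 9 members were lower and 2 higher under palmitate than under oleate, with a median of -0.13. Over all genes past the filter 36.8% were lower and 30.9% higher, with a median of 0. Palmitate against elaidate gave 5 lower, 2 equal and 2 higher around a median of -0.06, beside 37.9% lower, 34.2% equal and 27.9% higher of all genes. Elaidate against oleate gave 6 lower, 3 higher and none equal with a median of -0.06, beside 24.3% lower, 31.5% higher and 44.1% equal of all genes. The elaidate array held the middle value for 6 members and the oleate array for 1, with 2 members tied. Elaidate was in the middle for 60.2% of the 4186 genes past the filter whose values differed on every array.

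**Figure D3:**
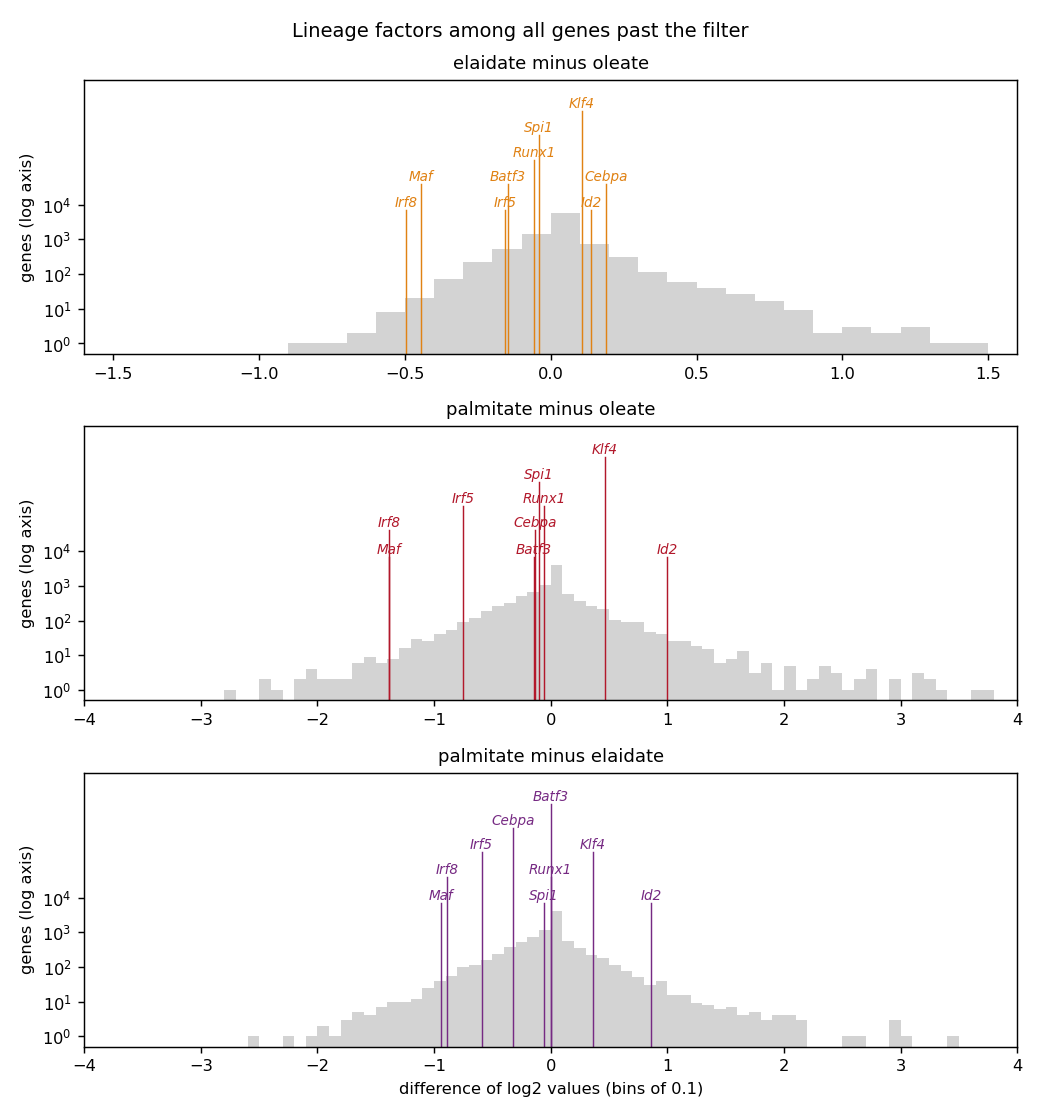
Number of genes past the filter (y axis, log scale) by difference of log2 values (x axis, bins of 0.1, with equal values counted in the bin from 0 to 0.1) for the 3 comparisons; coloured lines mark the lineage factors and their height carries no value. For palmitate minus oleate Irf8 and Maf lie in the thin left tail, and the x axis of the elaidate minus oleate panel covers a narrower range.

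Likeness of profile was measured as the Euclidean distance between the 3 log2 values after each gene was centred on its own mean, for the 4 members with a range of at least 1.5-fold. Irf8 lay nearest to Il6ra, the alpha chain of the interleukin 6 receptor, at a distance of 0.022, then to Maf at 0.042 and Soga1 at 0.069. Maf lay nearest to Il6ra at 0.028, Irf8 at 0.042 and Fam102b at 0.057. Irf8 and Maf were thus among each other's 3 nearest genes. For Irf5 the nearest were Gltp, a glycolipid transfer protein gene, at 0.0017, Jpt1 at 0.012 and the kinase gene Akt1 at 0.015. Id2 lay nearest to 1810013L24Rik at 0.020, the endosome tether gene Eea1 at 0.024 and the endoplasmic reticulum stress factor gene Atf6 at 0.031. With 3 arrays a profile has few free values, and 27 genes lay within 0.2 of Irf8, 35 of Maf, 129 of Id2 and 428 of Irf5.

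The families to which these factors belong gave mixed values. Among the other interferon regulatory factors, 5 of 6 measured genes passed the filter, and 0 differed by 1.5-fold in any comparison. Of all genes, 4.73% were 1.5-fold lower and 4.57% higher for palmitate minus oleate. Those shares were 4.43% and 3.18% for palmitate minus elaidate, and 0.0638% and 0.723% for elaidate minus oleate. Irf2, a repressor of interferon genes, went the way of Irf8 with 7.61 on the palmitate, 7.87 on the elaidate and 8.08 on the oleate array, a difference of -0.47 for palmitate minus oleate. Irf9, the DNA-binding partner of the STAT proteins, was 0.13 higher and Irf1 0.01 higher, while Irf7 was equal on all arrays. For elaidate minus oleate Irf2 stood at -0.21 and Irf9 at 0.11, and for palmitate minus elaidate at -0.27 and 0.02. In the ETS family 7 of 11 genes passed the filter, with a median of 0 in each comparison. Ets2 had 11.09 on the palmitate, 10.38 on the elaidate and 10.58 on the oleate array. Its palmitate minus elaidate difference of 0.71 was the family's only one past 1.5-fold, beside 3.18% of all genes higher. Gabpa at 0.27 and Elf4 at -0.23 followed for palmitate minus oleate, and Fli1, an ETS factor of blood and vessel cells, was equal on all arrays. For elaidate minus oleate Ets2 at -0.20, Gabpa at 0.20 and Elf1 at 0.08 were furthest from 0.

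Of the other C/EBP genes 4 were measured, all past the filter. For palmitate minus oleate 2 were higher and 2 equal, beside 30.9% and 32.3% of all genes, while Cebpa stood at -0.13. Cebpg, a dimer partner of ATF4, had 7.82 on the palmitate, 6.90 on the elaidate and 6.75 on the oleate array, 1.07 higher for palmitate minus oleate. Cebpb, the C/EBP factor of activated macrophages, had 9.24 on the palmitate, 8.62 on the elaidate and 8.76 on the oleate array, 0.48 over oleate and 0.62 over elaidate. Cebpg was 0.92 above elaidate, and for elaidate minus oleate Cebpg stood at 0.15 and Cebpb at -0.13. Cebpd and Cebpe were equal on all arrays. In the list of MAF, BATF and AP-1 genes, 9 of 11 measured genes passed the filter. Its only member past 2-fold was the immediate early gene Fos, at -1.28 for palmitate minus oleate, where 1.22% of all genes were 2-fold lower. Fos had 4.44 on the palmitate, 5.41 on the elaidate and 5.73 on the oleate array. The palmitate value lay below the highest receptor gene on that array, at 5.11. The small MAF gene Mafk stood at 0.43 and Jund at -0.56 in that comparison, and Mafg and Maff were equal on all arrays. For palmitate minus elaidate Fos at -0.97, Mafk at 0.35 and Jund at -0.33, and for elaidate minus oleate Fosl2 at -0.32, Fos at -0.31 and Jund at -0.24, were furthest from 0.

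ID genes differed in sign. Id1, which encodes an inhibitor of the same type as Id2, had 6.57 on the palmitate, 7.42 on the elaidate and 7.53 on the oleate array, a difference of -0.96 for palmitate minus oleate where Id2 stood at 0.997. Id3 was equal on the palmitate and elaidate arrays, with a difference of -0.21 from oleate on each. Among KLF genes Klf6 stood at 0.58 and Klf10, a target of TGF-beta signalling, at -0.55 for palmitate minus oleate. The list of other RUNX, KLF and ID genes had 9 of 10 measured genes past the filter. For palmitate minus oleate 6 were lower and 3 higher, beside 36.8% and 30.9% of all genes, and the median was -0.25. A filter at the 75th percentile turned that median to 0.0024, midway between Klf13 at 0.22 and Id3 at -0.21. For palmitate minus elaidate Id1 at -0.85, Klf10 at -0.66 and Klf6 at 0.57, and for elaidate minus oleate Klf3 at 0.28, Id3 at -0.21 and Klf10 at 0.11, were furthest from 0.

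Of 41 other measured myeloid and stem cell factors, 28 passed the filter. For palmitate minus oleate 15 were lower, 6 equal and 7 higher, beside 36.8%, 32.3% and 30.9% of all genes. The median was -0.05. Nfil3, a bZIP factor of innate lymphoid and dendritic cell development that works upstream of Id2, was the only one past 2-fold, at 1.02. The share of all genes 2-fold higher was 1.65%. Nfil3 had 7.66 on the palmitate, 6.89 on the elaidate and 6.64 on the oleate array. At elaidate minus oleate Bhlhe40, a repressor active in macrophages, stood at 0.33, Nfil3 at 0.25 and Myc at -0.21. For palmitate minus elaidate the lysosome regulator gene Tfeb stood at -0.92, Mef2c at -0.77 and Nfil3 at 0.77. Of the 41 genes 8 were near background on each array, among them Gata1, Gfi1 and Myb. Other factors of progenitors or of other branches passed the filter, such as Lyl1 at 7.19 on the palmitate, 7.69 on the elaidate and 7.86 on the oleate array, and Meis1 and Hhex, which were equal on all arrays at 6.46 and 6.55.

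**Figure D4:**
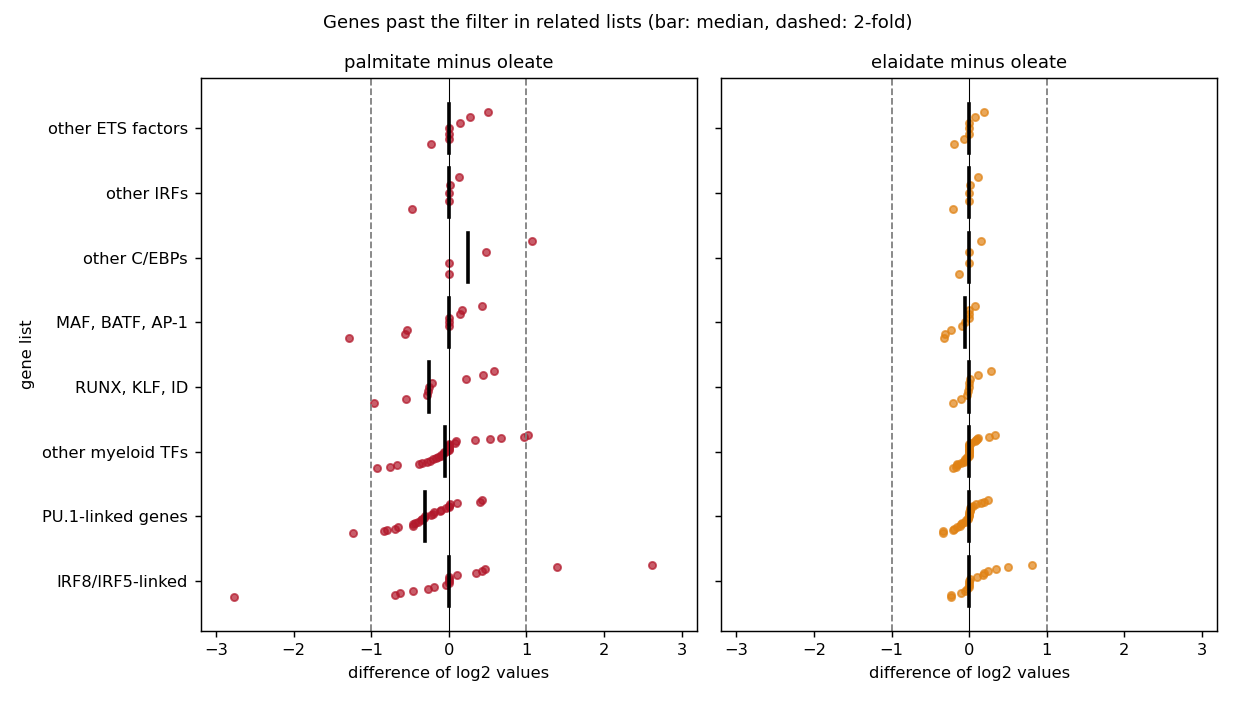
Difference of log2 values (x axis) for genes past the filter in 8 lists (y axis), for palmitate minus oleate and elaidate minus oleate; each point is a gene, black bars are list medians and dashed lines mark 2-fold. The PU.1 list has its median at -0.30 for palmitate minus oleate, and the elaidate minus oleate points lie within 2-fold of 0.

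Genes linked to these factors in macrophages were read next. The PU.1 list held 25 measured genes, Spi1 among them, all past the filter. It shares 7 of the 8 macrophage markers given above, all but Mertk, so the shifts of both lists are not separate readings. For palmitate minus oleate 19 were lower, 2 equal and 4 higher, beside 36.8%, 32.3% and 30.9% of all genes. The median was -0.30, beside 0 for all genes, while Spi1 itself differed by -0.10. Csf2rb, the shared beta chain of the GM-CSF and interleukin 3 receptors, was the only one past 2-fold, at -1.24, beside 1.22% of all genes lower. It had 7.04 on the palmitate, 7.95 on the elaidate and 8.28 on the oleate array. The receptor gene Csf1r, chosen here after its values were seen, had 10.70 on the palmitate, 11.05 on the elaidate and 11.16 on the oleate array. Against elaidate, palmitate values of Csf2rb at -0.91, the Fc receptor gene Fcgr3 at -0.80 and the integrin gene Itgb2 at -0.70 were furthest from 0. For elaidate minus oleate 12 were lower, 3 equal and 10 higher around a median of 0, beside 24.3%, 44.1% and 31.5% of all genes. The macrophage surface gene Adgre1 at -0.34, Csf2rb at -0.33 and Tlr4 at 0.25 were furthest from 0.

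The list linked to IRF8 or IRF5 had 17 of 22 measured genes past the filter, Klf4 among them. Its members went in opposite directions for palmitate minus oleate, with 7 lower, 4 equal and 6 higher around a median of 0. The shares of all genes were 36.8%, 32.3% and 30.9%. Cx3cr1, the fractalkine receptor of monocytes, had 4.78 on the palmitate, 7.31 on the elaidate and 7.55 on the oleate array. Cd274, which encodes the checkpoint ligand PD-L1, had 9.47 on the palmitate, 7.66 on the elaidate and 6.85 on the oleate array. Cx3cr1 thus stood at -2.77 and Cd274 at 2.62 for palmitate minus oleate, and at -2.54 and 1.82 for palmitate minus elaidate. The palmitate value of Cx3cr1 lay below the highest receptor gene on that array, at 5.11. The chemokine gene Ccl5, at 8.64 on the palmitate, 7.74 on the elaidate and 7.24 on the oleate array, was also past 2-fold, at 1.40 for palmitate minus oleate. Among the cytokine genes of the list, Il12a, Il12b and Ifnb1 were near background on all arrays, and Il18 and Il27 passed the filter. Il27, with 4.71 on each array, lay below the highest receptor gene on every array. So did Il18 on the palmitate array, at 4.91. Il6, below the filter, was above the background limit at 3.36 on the palmitate and 3.25 on the elaidate array, and below it at 3.07 on the oleate array. For elaidate minus oleate Cd274 at 0.81, Ccl5 at 0.49 and Il18 at 0.35 were furthest from 0.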

How the data were processed

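Total RNA of RAW264.7 cells was hybridised to whole-transcript Affymetrix arrays, 1 for each of 3 fatty acids, and groups were taken from the labels. The deposited log2 values, 1 per probe set, come from RMA, as the submitters' processing notes name it, and its version is not given. RMA corrects background, equalises array distributions and summarises probes, and was run by the authors on arrays without replicates. Arrays have no depth, and their number limits the precision. Values were used as deposited.

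Of 35556 probe sets, 21218 had 1 gene symbol in the platform annotation, which can be old, 1881 had several and 12457 were not named; 0 probe sets with several symbols named a member. Probe sets of a gene were averaged. The filter kept genes whose mean was at or above the median. Differences of log2 values were taken between arrays, with limits of 2-fold and 1.5-fold, and 1e-06 as the tolerance for equal values. No test was possible. All members were named; in each other list, those past 2-fold in a comparison or otherwise the 3 furthest from 0 were named, and some others were added after their values were seen. A further list is not reported here. The members and lists were chosen with earlier results of these data known. List genes without their own probe set are not covered. The files name no genome build, so only the RefSeq promoter windows carry coordinates.

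Alternatives were no filter or a 75th percentile filter, array medians set to 0, limma's cyclic loess (version 3.58.1, R 4.3.3, span 0.7 and 3 iterations), the brightest probe set by mean, a 3-fold limit and other background limits. Counting was tested on simulated data. Software was Python 3.11.15 with pandas 2.3.3, numpy 2.4.6 and matplotlib 3.10.9.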

Additional observations from a re-analysis of the deposited data

How the results depend on the processing

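The 81 recomputed differences of single members came from array centring, cyclic loess and the probe set with the highest mean. All moved by at most 0.040 log2 units, the shift of array centring for palmitate over oleate, which is the same for every gene. Each member had 1 probe set, so choosing the probe set with the highest mean could not change its differences. Under cyclic loess, the only one of these settings free to move members differently, the shift was at most 0.0036. The 2 members past 2-fold for palmitate minus oleate became 0 at 3-fold and 1, Irf8, among members past a 75th percentile filter. Filters moved list medians. At the 75th percentile, the C/EBP list had a median of -0.13 for elaidate over oleate, 0.48 for palmitate over oleate and 0.62 for palmitate over elaidate. These are the differences of Cebpb, the only gene of that list left by this filter. The medians of the IRF8 or IRF5 list were 0.094, -0.11 and -0.14 in the same order. The RUNX, KLF and ID list changed sign, to 0.0024 for palmitate over oleate and 0.11 for palmitate over elaidate, where no filter gave -0.13. Both values after the change lay midway between the differences of Klf13 and Id3. These filters change which genes are counted. No paired analysis was possible because each fatty acid has 1 array and the labels give no replicate numbers. Without replicates, the spread between cultures and the error of any difference were not measured.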
